A study of Mus musculus with 12 samples.

Results

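The genes described here encode the machinery that decides whether a cell leaves G1: the D-type cyclins Ccnd1, Ccnd2 and Ccnd3, the cyclin-dependent kinases Cdk2, Cdk4 and Cdk6, and the pocket proteins Rb1, Rbl1 (p107) and Rbl2 (p130). They were chosen by name, and all 9 were found among the 37620 genes counted. RNA came from neural stem cells of E14.5 mouse embryos on the C57BL/6J background, with 3 libraries in each of 4 groups: E12KO (E12-/-), E12wt (E12+/+ litter mates), E47KO (E47-/-) and E47wt (E47+/+ litter mates). E12 and E47 are splice forms of the transcription factor Tcf3, which has a basic helix-loop-helix domain, and the cells of all 4 groups were kept dividing in Neurobasal-A medium with B-27 lacking vitamin A, 20 ng/ml FGF-2 and 20 ng/ml EGF. The labels do not say how the alleles were made, nor whether replicates are separate embryos or separate cultures, so the p-values measure the spread between these libraries, which may be technical.

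Growth factors raise D-type cyclins, which bind Cdk4 or Cdk6 and start the phosphorylation of the pocket proteins. Unphosphorylated pocket proteins hold E2F transcription factors and silence their targets, and cyclin E with Cdk2 completes the release as cells enter S phase. Rbl2 is known as the pocket protein of resting cells, Rbl1 is itself an E2F target that is made in cycling cells, and in the embryonic cortex Ccnd1 and Ccnd2 are the main D cyclins of dividing progenitors. E proteins such as E12 and E47 bind E-boxes, and a known link to this machinery is through the genes of CDK inhibitors.

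Each library held 34515297 to 56835783 reads on genes, and a floor of 3 reads corresponded to 0.0528 to 0.0869 counts per 1000000 reads (CPM, scaled for library composition). The stem cell genes Nes and Sox2 were at 1159 to 1709 CPM and 203 to 266 CPM, while the microglia markers summed to at most 0.256 CPM. A count over the whole Tcf3 gene cannot separate E12 from E47. Tcf3 was at 117.8, 113.5 and 107.6 CPM in E47KO, against 83.7, 75.4 and 97.2 CPM in E47wt, and at 91.7, 72.9 and 101.4 CPM in E12KO, against 76.4, 82.2 and 75.8 CPM in E12wt. All 3 E47KO libraries were above the other 9, and the E12 groups overlapped. E47KO replicate 2, the shallowest library, stood apart from the others: 64.0% of 12588 genes had their lowest or highest level there, against 3.34 to 25.7% in each of the other 11 libraries. Of the 12588 genes, 33.5% were lowest and 30.6% highest in that library. The fold changes of Ccnd1, Ccnd2 and Rbl2, the correlations and the list directions that involve it are given with and without it.

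Per kilobase of exon, Cdk4 was the most abundant of the 9 transcripts and Cdk6 the least. Over the 12 libraries, Cdk4 averaged 237.9 ± 13.6 reads per kilobase per 1000000 reads (RPKM, SD, n = 12), Ccnd1 152.7 ± 42.4 RPKM and Ccnd2 70.8 ± 18.6 RPKM. Cdk2 followed at 14.7 ± 2.37 RPKM, Rbl1 at 12.01 ± 1.88 RPKM, Rb1 at 11.6 ± 1.2 RPKM, Rbl2 at 7.60 ± 0.996 RPKM, Ccnd3 at 5.64 ± 0.662 RPKM and Cdk6 at 0.562 ± 0.158 RPKM. This order held within all 12 libraries for 7 of the 8 neighbouring pairs. The exception was Rbl1 and Rb1, which kept it in 9 of 12 libraries and so cannot be ordered beyond their spread.

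**Figure D1:**
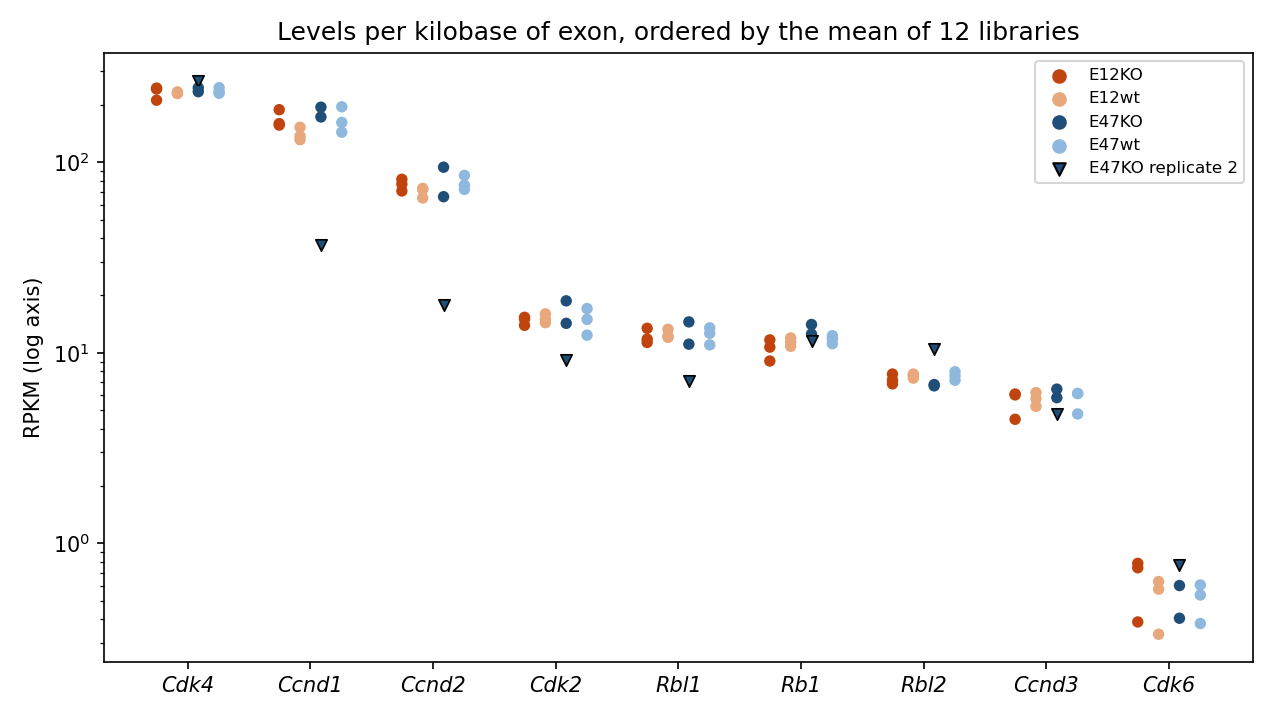
Level of each gene in RPKM (log axis) in the 12 libraries, coloured by group, with E47KO replicate 2 as a triangle; genes run from the highest to the lowest mean. Cdk4 averaged 237.9 RPKM and Cdk6 0.562 RPKM, and the triangles of Ccnd1, Ccnd2, Cdk2 and Rbl1 lie under the other 11 libraries.

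Each family was dominated differently. Among the D cyclins, Ccnd1 made up 66.2 ± 2.40% of the summed RPKM, Ccnd2 30.9 ± 1.89% and Ccnd3 2.83 ± 1.66% (SD, n = 12). Among the kinases, Cdk4 held 93.9 ± 1.08%, Cdk2 5.84 ± 1.06% and Cdk6, the other partner of the D cyclins, 0.223 ± 0.0656%. The pocket proteins were more even, with 38.4 ± 4.86% for Rbl1, 37.1 ± 2.47% for Rb1 and 24.5 ± 4.02% for Rbl2.

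The window from 250 bases before to 50 bases after the annotated start was read from RefSeq on GRCm38.p6, where 6 of the 9 genes had one. Ccnd1, Ccnd2 and Rb1 had none there. Cdk2 and Rbl1 are shown because their levels ran in parallel over the libraries, and Cdk4 because its level was the steadiest. Capitals mark E-boxes of the form CAGCTG or CACGTG, and E2F motifs; the E-box CAGGTG was also searched.

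Cdk2 promoter, chr10:128705002-128705301, minus strand: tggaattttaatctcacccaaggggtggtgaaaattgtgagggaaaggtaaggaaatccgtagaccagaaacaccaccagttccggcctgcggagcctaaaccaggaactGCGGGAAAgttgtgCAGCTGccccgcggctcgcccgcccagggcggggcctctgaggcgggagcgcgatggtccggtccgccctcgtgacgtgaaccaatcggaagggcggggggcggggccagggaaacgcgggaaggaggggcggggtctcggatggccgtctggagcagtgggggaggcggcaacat
Rbl1 promoter, chr2:157204485-157204784, minus strand: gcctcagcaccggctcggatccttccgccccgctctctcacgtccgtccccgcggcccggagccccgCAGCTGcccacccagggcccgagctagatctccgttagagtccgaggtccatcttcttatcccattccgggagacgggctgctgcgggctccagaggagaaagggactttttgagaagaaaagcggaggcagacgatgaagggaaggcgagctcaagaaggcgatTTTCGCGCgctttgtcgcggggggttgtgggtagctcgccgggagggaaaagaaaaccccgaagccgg
Cdk4 promoter, chr10:127063285-127063584, plus strand: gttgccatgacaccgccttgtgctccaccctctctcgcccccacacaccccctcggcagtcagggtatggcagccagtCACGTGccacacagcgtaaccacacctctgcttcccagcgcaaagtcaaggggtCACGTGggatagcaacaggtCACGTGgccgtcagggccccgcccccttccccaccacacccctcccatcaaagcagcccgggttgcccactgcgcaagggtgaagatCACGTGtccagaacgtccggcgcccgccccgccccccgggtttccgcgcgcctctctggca

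Both Cdk2 and Rbl1 held 1 E-box CAGCTG, which 16.3% of 32851 RefSeq windows of this length held. The E-box CAGGTG, another form that E proteins are known to bind, was in 0 of the 7 windows of the 6 genes, against 20.2% of all windows. Both also held 1 E2F motif, GCGGGAAA in Cdk2 and TTTCGCGC in Rbl1, against 2.26% of all windows; the search covered TTTCCCGC, TTTCGCGC, TTTGCCGC and TTTGGCGC on both strands. Cdk4 held 4 copies of the E-box CACGTG, the form best known for binding Myc, and Cdk6 held 1, against 7.15% of all windows with any. No E-box CANNTG, a form that contains the other 2 and that 72.3% of windows held, was in the windows of Rbl2 or Ccnd3. Rbl2 held 1 CHR motif, TTTGAA read on either strand, which 17.9% of windows held. These matches are descriptions of letters and show no binding.

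In cells lacking E12, Ccnd1 was somewhat higher than in wild type, without passing the test after adjustment. It was the single gene of the 9 with every knockout library above every wild-type library. Ccnd1, the most abundant D cyclin, was at 738, 752 and 890 CPM in the 3 E12KO libraries, against 646, 719 and 619 CPM in the 3 E12wt libraries. Every E12KO library was above every E12wt library, which held for 6.77% of the 14755 genes tested. This share counts the higher direction only and leaves out genes whose knockout libraries were all below wild type. The fitted log2 fold change was 0.26 ± 0.09 (SE), with a 95% interval of 0.06 to 0.47, an unadjusted p of 0.0174 and an adjusted p of 0.523 in edgeR's quasi-likelihood test. It did not pass after adjustment for all genes tested, and 8.96% of them had an unadjusted p under 0.05. In the authors' deposited table, the log2 fold change of Ccnd1 was 0.25 ± 0.09 with an adjusted p of 0.297. With 1 library left out, the edgeR value ran from 0.18 (without E12KO replicate 3) to 0.33 (without E12wt replicate 2). In a fit of all 12 libraries it was 0.26 ± 0.42 (SE).

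None of the 9 genes passed: edgeR called 0 of 9, beside 0.0407% of all genes tested, with 1 of 9 at an unadjusted p under 0.05, and DESeq2 also called 0, beside 0.55% of the genes it tested. Ccnd2, the second D cyclin, was at 665, 723 and 766 CPM in E12KO and 611, 677 and 686 CPM in E12wt. Its groups overlapped, with a log2 fold change of 0.13 ± 0.07 (95% interval -0.04 to 0.30). Dropping E12wt replicate 1 brought it to 0.07, and dropping E12KO replicate 3 to 0.08. Ccnd3, which is minor in this culture, was at 39.3 to 53.3 CPM in E12KO and 45.9 to 54.2 CPM in E12wt, and its log2 fold change was -0.05 ± 0.12.

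The kinase groups overlapped. Cdk4 averaged 758 ± 60.4 CPM in E12KO and 752 ± 7.44 CPM in E12wt (SD, n = 3 each), and its 95% interval ran from -0.15 to 0.17 on the log2 scale. Cdk2, the partner of cyclins E and A, averaged 91.9 ± 4.63 CPM in E12KO and 94.2 ± 5.10 CPM in E12wt, with an interval of -0.18 to 0.12. Cdk6 was at 5.41, 10.98 and 10.4 CPM in E12KO, against 4.66, 8.04 and 8.81 CPM in E12wt. Its log2 fold change of 0.32 ± 0.30 left an interval of -0.36 to 1.01. Leaving out 1 library moved it over 0.08 (without E12wt replicate 1) to 0.58 (without E12KO replicate 1). In each of the 4 groups, replicate 1 was the library with the lowest Cdk6.

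The pocket proteins also overlapped between groups. Rb1, the retinoblastoma protein, averaged 63.1 ± 8.001 CPM in E12KO and 68.5 ± 3.46 CPM in E12wt, with an interval of -0.34 to 0.11 (log2). Rbl1 averaged 73.1 ± 6.70 CPM in E12KO and 75.1 ± 3.98 CPM in E12wt, with an interval of -0.22 to 0.15. Rbl2 averaged 54.9 ± 3.29 CPM in E12KO and 57.2 ± 1.41 CPM in E12wt, with an interval of -0.21 to 0.10. Over the 9 genes the median log2 fold change was -0.03, beside 0.0045 over all genes tested, and 4 of 9 were above 0.

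**Figure D2:**
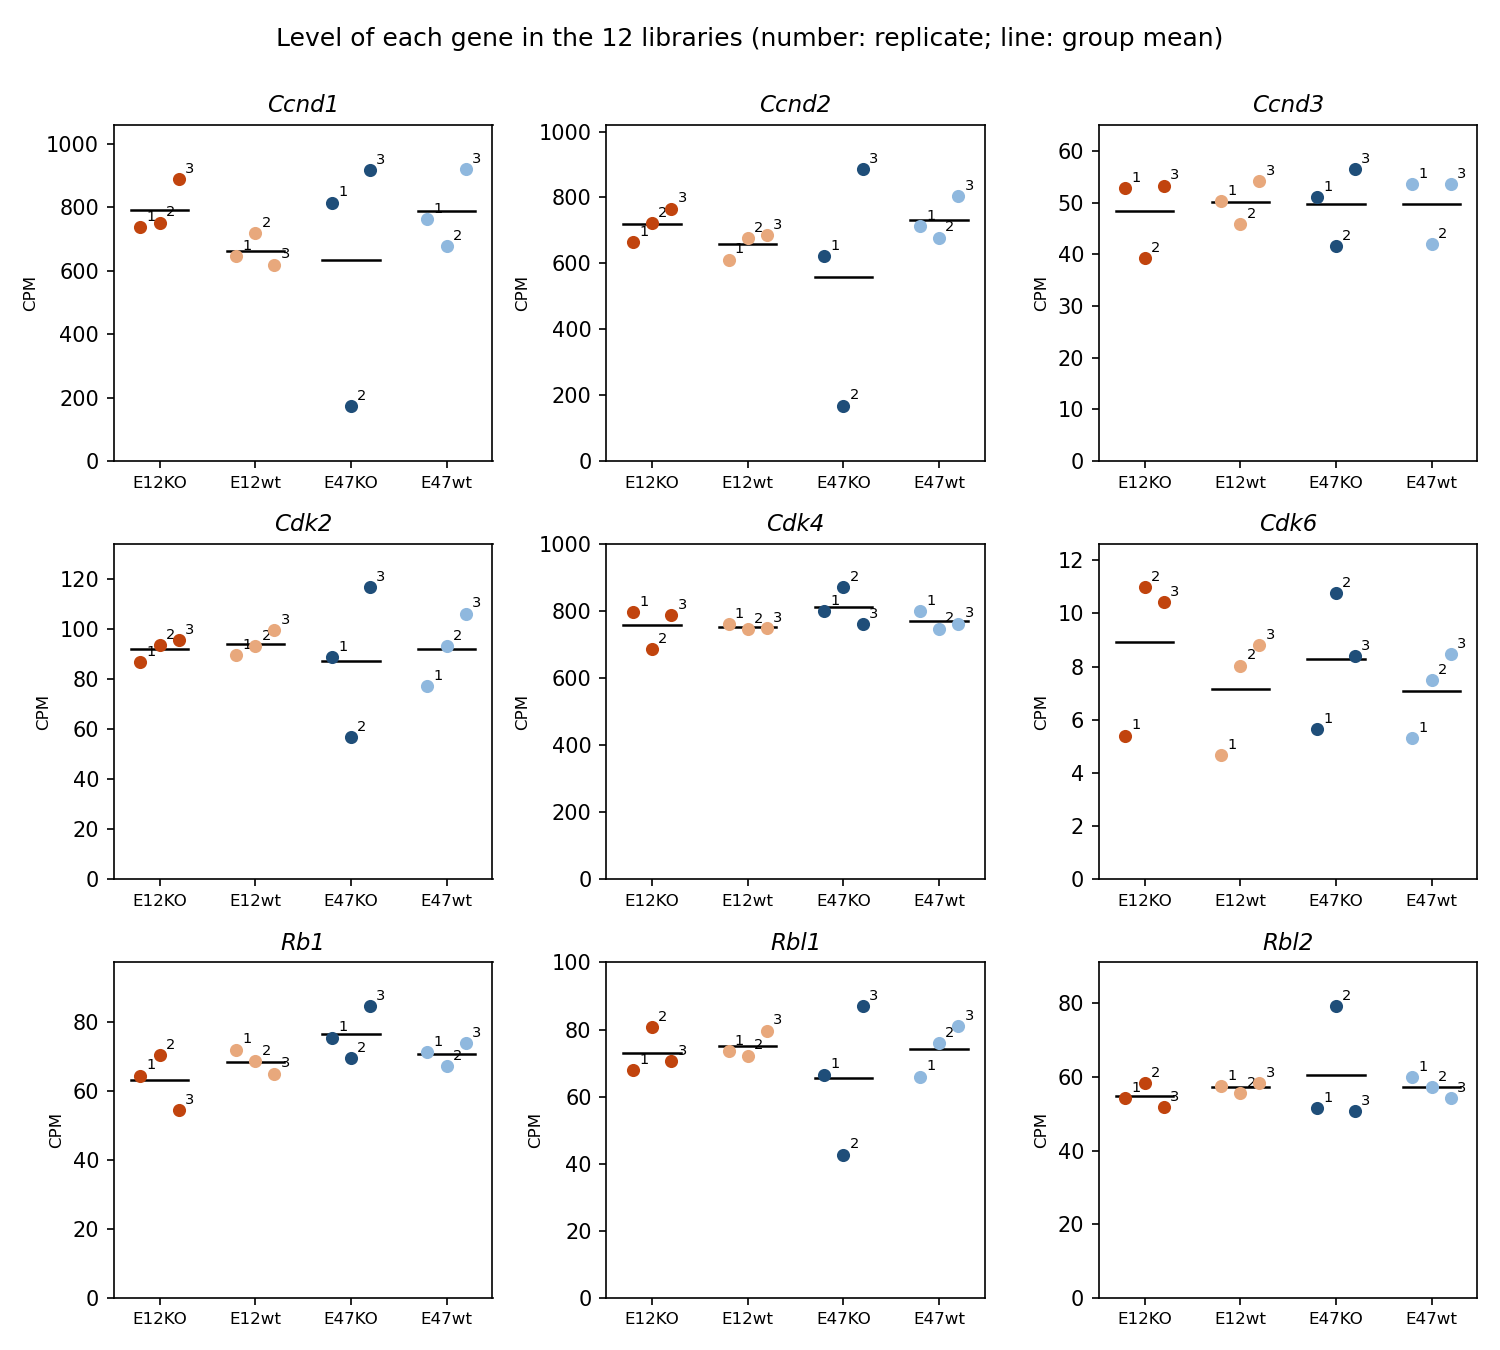
Level of each gene in CPM, from 0, in the 3 libraries of each group, with the replicate number beside each point and a line at the group mean. Ccnd1 in E12KO (738 to 890 CPM) lies above E12wt (619 to 719 CPM), and E47KO replicate 2 lies at 173 CPM for Ccnd1 and 168 CPM for Ccnd2.

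Among the markers of other cell types, edgeR called only mesenchymal and meningeal ones between E12KO and E12wt, and these were at low levels. Of the 5 mesenchymal and meningeal markers tested, edgeR called 3 lower in E12KO and 0 higher, beside 0.0407% of all genes tested. All 8 of these markers summed to 1.36 to 1.88 CPM in E12KO and 8.70 to 12.5 CPM in E12wt. This sum also varied among wild types, at 16.8, 1.84 and 1.53 CPM in the E47wt libraries, so that 1 of these was above E12wt and the other two were near the E12KO level. Col1a1, a fibrillar collagen, averaged 1.05 ± 0.118 CPM in E12KO and 3.77 ± 0.267 CPM in E12wt. The 7 oligodendrocyte lineage markers were all below 0 in log2 fold change (median -0.60), with 0 called; they summed to 874 to 1106 CPM in E12KO and 967 to 1427 CPM in E12wt. Of the 6 neuron markers tested, 5 were below 0 (median -0.38), with 0 called. In edgeR 3 of them had an unadjusted p under 0.05, as had 8.96% of all genes tested. The neuron markers summed to 1121 to 1310 CPM in E12KO and 1158 to 1242 CPM in E12wt, and Dcx, a microtubule protein of young neurons, had a log2 fold change of -0.92 (adjusted p = 0.531 in edgeR). Of the 5 intermediate progenitor markers tested, 4 were below 0 (median -0.32), with 0 called. In edgeR 3 of these had an unadjusted p under 0.05, beside the same 8.96% of all genes. The progenitor list summed to 157 to 183 CPM in E12KO and 186 to 218 CPM in E12wt. Neurog2, a neurogenic transcription factor, had a log2 fold change of -1.26 and Eomes, which marks intermediate progenitors, 0.89, with means of 0.820 and 0.954 CPM in E12KO, against 1.96 and 0.512 CPM in E12wt. The part of these cells in the level of Ccnd1 was not tested, and in such bulk samples fewer cells of a type and less RNA per cell cannot be told apart.

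Between the wild types of the lines, Ccnd1 had a log2 difference of similar size, which 1 library moved. It was at 762, 678 and 922 CPM in E47wt, against the E12wt values above, a log2 difference of 0.25 ± 0.11 with an interval of -0.01 to 0.51 and an unadjusted p of 0.0611 in edgeR. The groups overlapped by replicate 2 of each line. The difference was 0.13 without E47wt replicate 3. It was 0.34 without E47wt replicate 2, the 1 wild-type library with Y-linked transcripts. With sex as a covariate it was 0.34 too, which is no separate check, because that covariate sets the same library aside. This comparison and that of E12KO share the E12wt libraries. Of the 9 genes, edgeR called 0 between the wild types, beside 0.0% of 14892 genes tested, with 0 of 9 at an unadjusted p under 0.05, as had 3.81% of all genes tested. DESeq2 called 0, beside 0.0266% of its genes, and had 1 of 9 at an unadjusted p under 0.05. The other 8 log2 differences ran from -0.03 to 0.15.

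**Figure D3:**
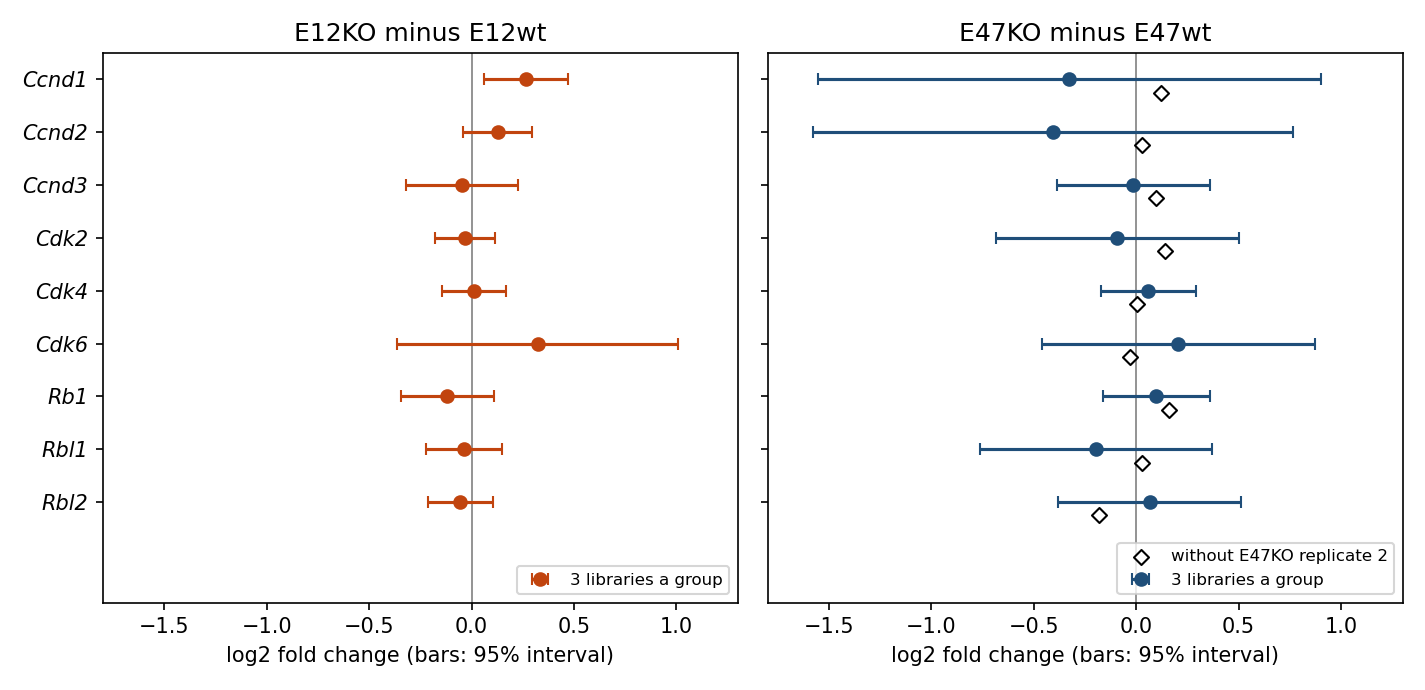
Fitted log2 fold change of each gene, knockout minus wild type, with its 95% interval, for E12 (left) and E47 (right); open diamonds are the E47 values without E47KO replicate 2. The interval of Ccnd1 lies above 0 for E12 (0.06 to 0.47) and runs from -1.56 to 0.90 for E47.

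In cells lacking E47, the mean of both main D cyclins was lower, but 1 library decided it. Ccnd1 was at 815, 173 and 917 CPM in E47KO, against 762, 678 and 922 CPM in E47wt. Ccnd2 was at 621, 168 and 887 CPM in E47KO, against 713, 678 and 803 CPM in E47wt. For both cyclins, replicate 2 of E47KO was far below every other library, while replicates 1 and 3 lay among the wild-type values or, for Ccnd2, on either side of them.

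The log2 fold change was -0.33 ± 0.52 for Ccnd1 and -0.41 ± 0.50 for Ccnd2, with an adjusted p of 0.971 for each in edgeR. Without E47KO replicate 2 these values were 0.12 and 0.03, without E47KO replicate 3 they were -0.66 and -0.88, and that of Ccnd1 was -0.55 without E47KO replicate 1 and -0.19 without E47wt replicate 3. With the replicate number as a block they were -0.62 and -0.68. Among the E47 libraries, E47wt replicate 2 and the 3 E47KO libraries carried Y-linked transcripts at 200 to 245 CPM, while E47wt replicates 1 and 3 carried Xist. With that difference as a covariate Ccnd1 was at -0.11 and Ccnd2 at -0.30. That fit rests on E47wt replicate 2, the 1 wild type of the line with Y-linked transcripts, so it can hardly separate sex from genotype. No setting brought either gene past the threshold.

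edgeR called 0 of the 9 genes between E47KO and E47wt, beside 0.0134% of 14965 genes tested, with 0 of 9 at an unadjusted p under 0.05, as had 2.19% of all genes tested; DESeq2 called 0 as well, beside 0.0221% of its genes. No gene of the 9 had groups without overlap, which 7.81% of all genes tested had in either direction. Cdk2 was at 88.8, 56.7 and 117 CPM in E47KO, against 77.0, 93.2 and 106 CPM in E47wt. Rbl1 was at 66.6, 42.7 and 87.1 CPM in E47KO, against 66.0, 75.9 and 81.0 CPM in E47wt. For both genes the lowest and the highest of the 12 libraries were E47KO libraries, replicate 2 and replicate 3.

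Rbl2 was at 51.5, 79.4 and 50.7 CPM in E47KO, against 60.1, 57.2 and 54.2 CPM in E47wt. Its order was the reverse of that of Rbl1: replicate 2 was highest of all 12 libraries, and replicates 1 and 3 were below every E47wt library. The log2 fold change of Rbl2 was 0.07 ± 0.19 over all 6 libraries and -0.18 without E47KO replicate 2. Cdk4 was at 800, 872 and 763 CPM in E47KO, against 800, 749 and 763 CPM in E47wt, with an interval of -0.17 to 0.29 (log2).

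Rb1 averaged 76.5 ± 7.67 CPM in E47KO and 70.8 ± 3.42 CPM in E47wt, with an interval of -0.16 to 0.36. Ccnd3 averaged 49.8 ± 7.53 CPM in E47KO and 49.7 ± 6.77 CPM in E47wt, and Cdk6 8.27 ± 2.55 CPM in E47KO and 7.08 ± 1.61 CPM in E47wt. In all 3 genes, E47KO replicate 2 lay within the range of the other 11 libraries. Among the E47 libraries alone it was highest in Cdk6, at 10.8 CPM, against at most 8.46 CPM. It was lowest there in Ccnd3, at 41.7 CPM, close to the 41.9 CPM of E47wt replicate 2.

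The knockout effects of the lines were compared as an interaction over all 12 libraries. edgeR called 0 of the 9 genes, beside 0.0% of 15277 genes tested, with 0 of 9 at an unadjusted p under 0.05, as had 3.03% of all genes tested, and DESeq2 called 0, beside 0.00422% of its genes. The E47 effect minus the E12 effect was -0.59 ± 0.59 (log2) for Ccnd1, with an interval of -1.88 to 0.71 and an adjusted p of 0.932. For Ccnd2 it was -0.53 ± 0.56 and for Rb1 0.22 ± 0.15. Without E47KO replicate 2 these values were -0.13 for Ccnd1, -0.09 for Ccnd2 and 0.29 for Rb1, and without E47KO replicate 3 they were -0.93 for Ccnd1 and -1.01 for Ccnd2. That of Rb1 was 0.13 without E12KO replicate 3. The E12 libraries all carried Xist, at 1010 to 1510 CPM, while all E47KO libraries and E47wt replicate 2 carried Y-linked transcripts. This comparison can therefore hardly separate sex from genotype. With sex as a covariate the values were -0.37 for Ccnd1, -0.42 for Ccnd2 and 0.29 for Rb1. With the replicate number as a block within each line they were -0.87, -0.80 and 0.23.

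E47KO replicate 2 was described gene by gene against the other 11 libraries, as values with no test since it is 1 library. Ccnd1 was at 173 CPM there, against 619 to 922 CPM in the others, a difference of -2.14 from the mean of their log2 values. Ccnd2 was at 168 CPM, against 611 to 887 CPM, a log2 difference of -2.08. Few genes were as low in that library: 0.246% and 0.270% of 12588 genes had a lower log2 difference. Ccnd1 over Ccnd2 in CPM was 1.03 there, within the 0.902 to 1.31 of the others, so both cyclins were low by a similar proportion.

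Ccnd3 lay within the other libraries, at 41.7 CPM, against 39.3 to 56.6 CPM. Its share of the D cyclins per length was therefore 8.01% in E47KO replicate 2 and 1.86 to 2.94% in the others. Cdk4 was above every other library, at 872 CPM, against 688 to 800 CPM. The ratio of Ccnd1 plus Ccnd2 to Cdk4 in CPM was 0.391 there and 1.65 to 2.37 in the others, with no overlap.

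Cdk2 and Rbl1 were below every other library, with differences of -0.73 and -0.80 from the mean log2 CPM of the others. Rbl1 over Cdk2 in CPM was 0.754 in E47KO replicate 2, within the 0.740 to 0.862 of the other libraries, so that both kept their proportion at the lower level. Rbl2 was above every other library, with a difference of 0.52 on the same scale, and that of Rb1 was 0.0020. Rbl1 over Rbl2 in CPM was 0.538 there and 1.10 to 1.72 in the others. Rbl2 made up 35.99% of the pocket protein transcripts per length in that library, against 19.0 to 25.8% in the others.

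**Figure D4:**
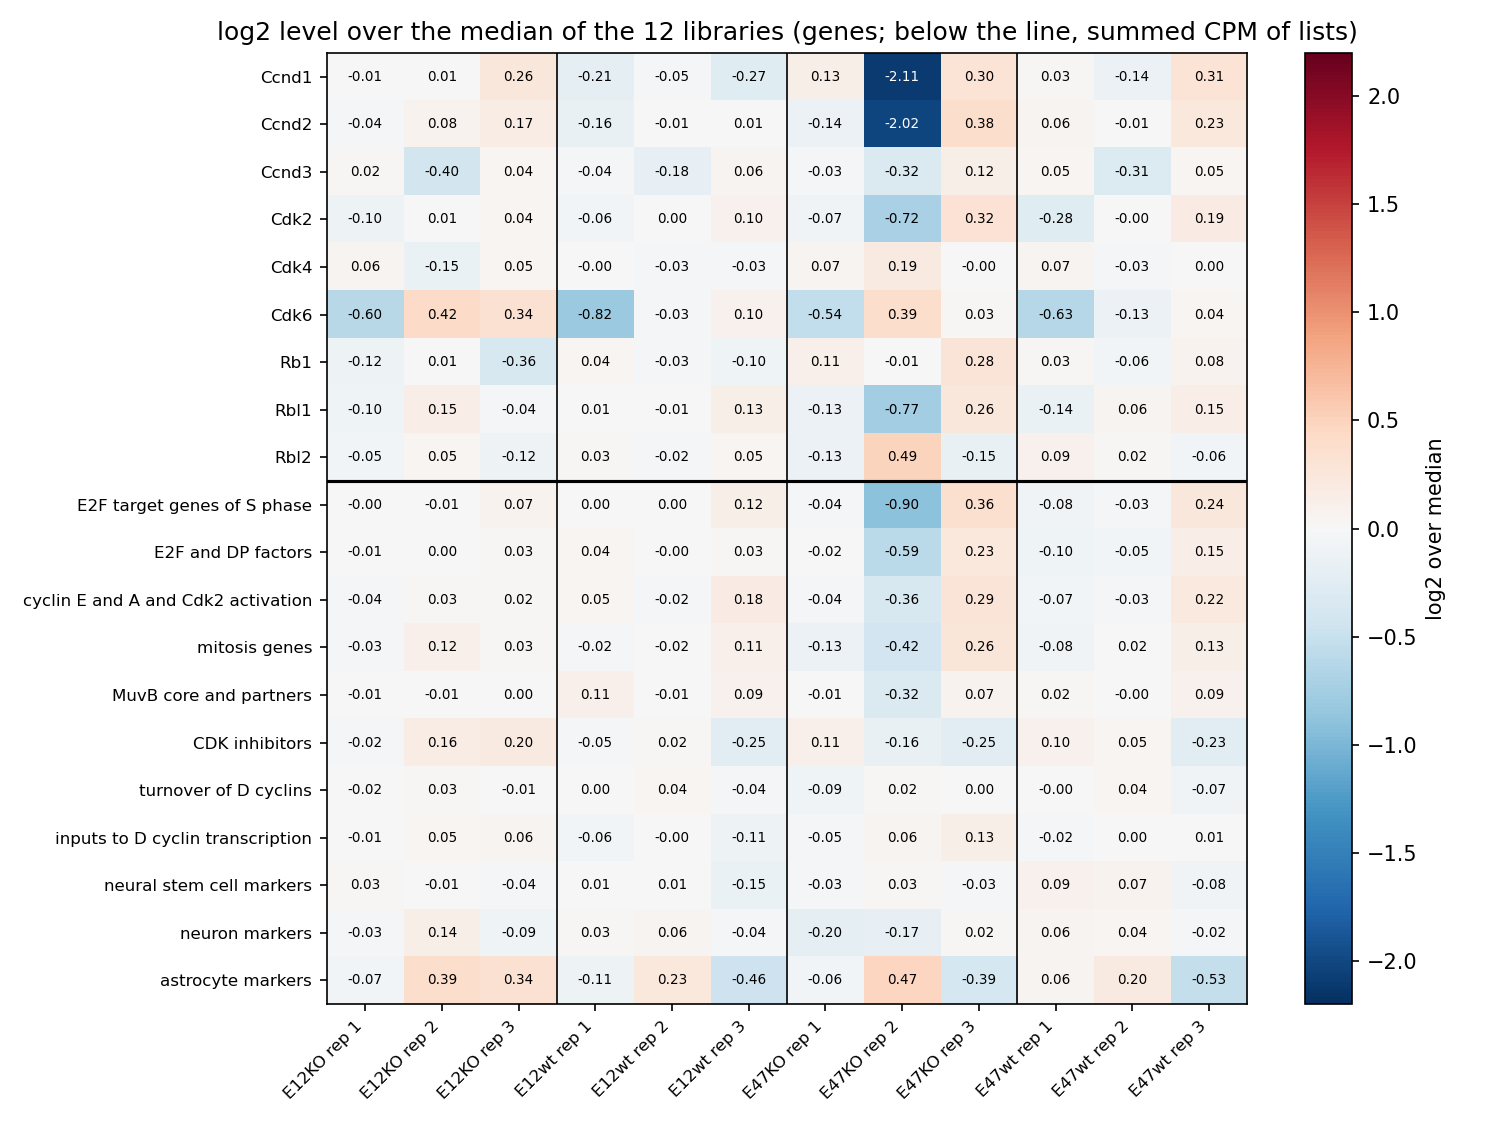
Heat map of the log2 level over the median of the 12 libraries, for the 9 genes (above the line) and for the summed CPM of 11 gene lists (below it), with knockout libraries left of their wild types. In E47KO replicate 2, Ccnd1 and Ccnd2 are lowest, Rbl2 is highest, and the S-phase E2F targets are lowest.

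Most E2F targets and cell cycle genes were also low in that library. All 24 E2F target genes of S phase were at their lowest of the 12 libraries there, and they summed to 2265 CPM, against 3979 to 5405 CPM in the others. Pcna, the sliding clamp of replication, was at 239.8 CPM, against 434 to 529 CPM, and Rrm1, a subunit of ribonucleotide reductase, at 383 CPM, against 525 to 624 CPM. Of the 10 E2F and DP factors, 7 were lowest there, among them Tfdp1 at 142 CPM, against 250 to 291 CPM, and E2f3 at 57.7 CPM, against 89.8 to 118 CPM. Of the 14 genes around cyclins E and A, 10 were lowest, and of 12 mitosis genes 8 were lowest, beside 33.5% of all genes, among them Top2a at 649 CPM, against 837 to 1175 CPM.

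Of the 6 CDK inhibitors, 1 was lowest there and 2 were highest, which is near the 33.5% and 30.6% of all genes. Cdkn1a (p21) was lowest at 199 CPM, against 219 to 384 CPM, and Cdkn1b (p27) was highest at 159 CPM, against 113 to 143 CPM. Of the 12 genes for the turnover of D cyclins, 7 were highest in that library, beside 30.6% of all genes, and 3 lowest, beside 33.5%; Ddb1, an adaptor of cullin ligases, was within the others at 732 CPM, against 694 to 816 CPM. Among the 4 astrocyte markers with a mean of at least 1 CPM, 3 were highest there, with a median log2 difference of 1.74 over the 4; all 5 astrocyte markers summed to 942 CPM there, against 472 to 895 CPM. Aqp4, a water channel of astrocytes, was at 24.0 CPM there, against 1.66 to 4.84 CPM. The neural stem cell markers summed to 11060 CPM, against 9768 to 11530 CPM, and the microglia markers to 0.139 CPM, against at most 0.256 CPM. The part of astrocyte-like RNA or depth in the low D cyclins was not tested.

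E47KO replicate 3, the deepest library, was at the other end. There 5 of the 9 genes were highest of the 12 libraries, namely Ccnd2, Ccnd3, Cdk2, Rb1 and Rbl1, beside 16.0% of all genes, and Rbl2 was lowest, beside 9.76%. Its S-phase E2F targets summed to 5405 CPM, the highest, and its mitosis genes to 3825 CPM, also the highest. The E47KO group therefore spanned the whole range of the series in Ccnd2, Cdk2, Rbl1 and Rbl2. The coefficients of variation of Cdk2, Rbl1 and Rbl2 were 34.3%, 33.9% and 27.0% in E47KO, against 15.9%, 10.3% and 5.12% in E47wt. For Ccnd1 and Ccnd2 the coefficients were 63.6% and 65.1% in E47KO, against 15.7% and 8.80% in E47wt.

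**Figure D5:**
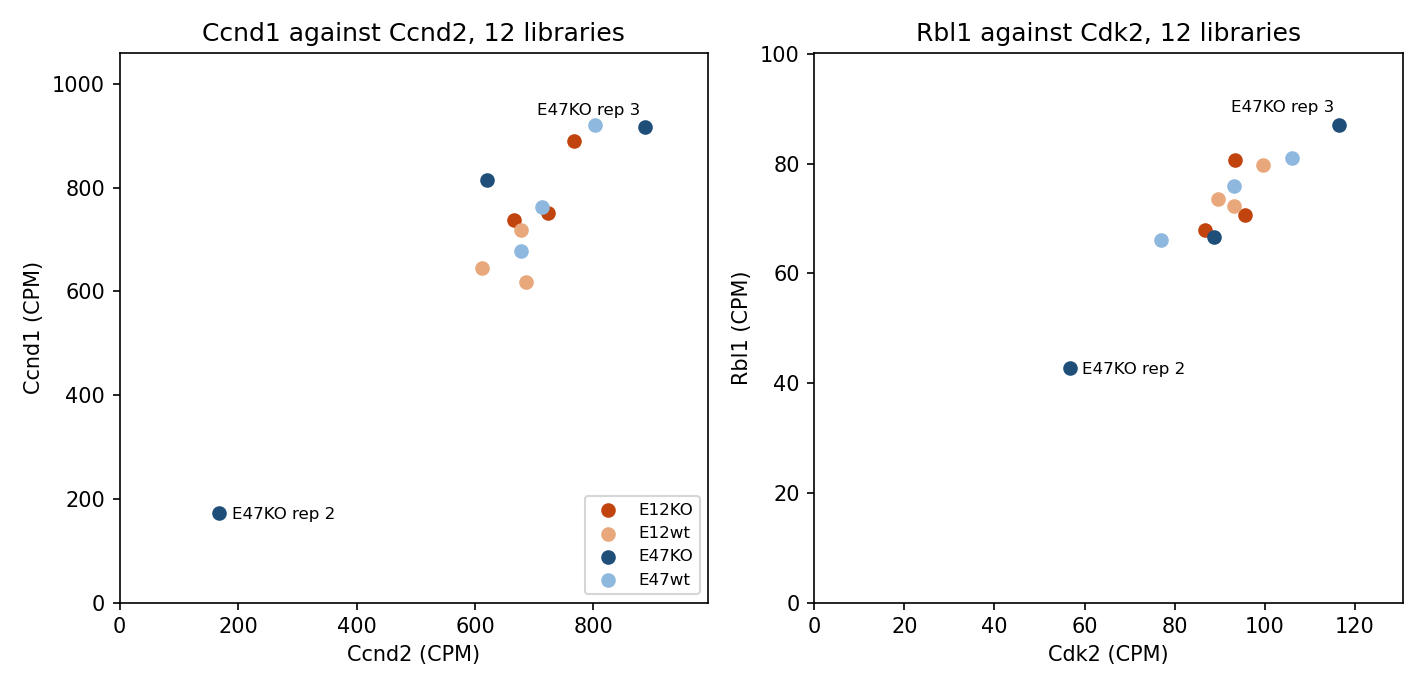
Ccnd1 against Ccnd2 (left) and Rbl1 against Cdk2 (right), in CPM from 0, each point 1 of the 12 libraries coloured by group. Rbl1 and Cdk2 keep a ratio of 0.740 to 0.862 from E47KO replicate 2 to E47KO replicate 3.

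Cdk2 with Rbl1, and Ccnd1 with Ccnd2, ran together across libraries, while several other correlations rested on E47KO replicate 2. These correlations are descriptions over libraries that share depth and scaling, and they are given over 12 libraries and over the 11 without E47KO replicate 2. Cdk2 and Rbl1 correlated at 0.96 and 0.87 (Pearson's r of log2 CPM), and Ccnd1 and Ccnd2 at 0.98 and 0.73. Ccnd1 and Rbl2 ran opposite, at -0.94 and -0.72. The correlation of Ccnd1 with Rbl1 was 0.86 over 12 libraries and 0.15 over 11, and that of Rbl1 with Rbl2 was -0.80 and -0.08, so these rested on that library. Ccnd3 and Cdk4 correlated at 0.20 over 12 libraries and 0.73 over 11.

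Among 12587 other genes, those most like Rbl1 were Smc2, a condensin subunit, and Suz12, a Polycomb subunit (r = 0.995 and 0.989 over 12 libraries, 0.981 and 0.958 over 11). Most like Cdk2 were Pole, the catalytic subunit of a replicative DNA polymerase, and Alg8 (0.979 and 0.978 over 12, 0.935 and 0.936 over 11). Ccnd2 was closest to Ipo11 and Pcna, both at 0.993 over 12 libraries, and at 0.889 and 0.890 over 11. Ccnd1 was closest to Ncs1 and Foxk2 (0.987 and 0.986 over 12, 0.872 and 0.849 over 11), and Rbl2 to Acadsb and Aldh6a1, both mitochondrial enzymes of amino acid breakdown (0.989 and 0.974 over 12, 0.950 and 0.873 over 11).

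The other 4 genes had these nearest genes over the 12 libraries. Cdk4 was closest to Rtl8a and Clstn1 (0.984 and 0.969 over 12, 0.971 and 0.969 over 11), Ccnd3 to Snrnp35 and St3gal2 (0.967 and 0.955 over 12, 0.967 and 0.949 over 11), and Cdk6 to Osbpl11 and Nat2 (0.910 and 0.902 over 12, 0.898 and 0.902 over 11). Rb1 had the weakest likeness of the 9, to Tox2 and Cybrd1 at 0.784 and 0.768 over 12 libraries and 0.786 and 0.780 over 11.

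The rest of the pathway was tested in the same fits. Over all genes tested, edgeR called 0.0407% in E12KO and 0.0134% in E47KO, and DESeq2 0.55% and 0.0221%. At an unadjusted p under 0.05, edgeR had 8.96% of all genes in E12KO and 2.19% in E47KO. The counts of each list below stand beside these shares. Of the 6 CDK inhibitors, edgeR called 0 in E12KO and 0 in E47KO, with 2 and 0 at an unadjusted p under 0.05, and DESeq2 called 1 in E12KO and 0 in E47KO. Cdkn1c (p57), the inhibitor that DESeq2 called, averaged 5.29 ± 0.432 CPM in E12KO and 8.29 ± 1.07 CPM in E12wt, with a log2 fold change of -0.64 and an adjusted p of 0.418 in edgeR. Cdkn1a averaged 346 ± 45.4 CPM in E12KO and 262 ± 41.2 CPM in E12wt, with a log2 fold change of 0.40 and an adjusted p of 0.523.

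Downstream, edgeR and DESeq2 called 0 of the 24 S-phase E2F targets, 0 of the 10 E2F and DP factors, 0 of the 7 MuvB genes, 0 of the 8 chromatin partners, 0 of the 12 mitosis genes and 0 of the 14 genes around cyclins E and A in either knockout. At an unadjusted p under 0.05, edgeR had 1 of these genes in E12KO, in the cyclin E and A list, and 0 in E47KO. The median log2 fold change of the E2F targets was -0.02 in E12KO, with 10 of 24 above 0, and -0.16 in E47KO, with 1 of 24 above 0, beside medians over all genes of 0.0045 and -0.0050. The E47 direction rested on E47KO replicate 2. As differences of mean log2 CPM between E47KO and E47wt, a comparison added after seeing the data, the median over the E2F targets was -0.25 with 1 of 24 above 0, and without that library it was 0.14 with 23 of 24 above 0, beside 48.9% of all genes above 0 with it and 54.2% without it. On the same scale, 3 of 10 E2F and DP factors were above 0 with that library and 10 of 10 without it, and for the genes around cyclins E and A it was 3 of 14 with it and 11 of 14 without it. For the mitosis genes it was 4 of 12 with it and 9 of 12 without it, and for the 9 genes of the G1 machinery 4 with it and 7 without it. In summed CPM, E47KO replicates 1 and 3 did not both lie above E47wt. The E2F targets summed to 4110 CPM in replicate 1 and 5405 CPM in replicate 3, against 3979 to 4997 CPM in E47wt. The mitosis genes summed to 2923 and 3825 CPM, against 3018 to 3499 CPM in E47wt. Pcna averaged 460 ± 12.1 CPM in E12KO and 456 ± 9.21 CPM in E12wt. Upstream, of the 17 genes that feed D cyclin transcription, edgeR tested 16 in E12KO, where Gli1 was too low, and 17 in E47KO, and edgeR and DESeq2 called 0 in either knockout, with 3 in E12KO and 2 in E47KO at an unadjusted p under 0.05. Ctnnb1 (beta-catenin) averaged 1501 ± 27.1 CPM in E12KO and 1499 ± 49.97 CPM in E12wt, and Egfr, the receptor of EGF, 734 ± 79.8 CPM in E12KO and 588 ± 134 CPM in E12wt, with an adjusted p of 0.572. Of the 12 genes for the turnover of D cyclins, 0 were called, with 1 in E12KO and 0 in E47KO at an unadjusted p under 0.05.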

How the data were processed

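Stranded mRNA was sequenced. Build mm9 and the tools STAR 2.5, DESeq and DESeq2 are named, per the submitters' processing notes; no annotation release was found in the labels or headers. The authors deposited whole-number counts per gene for both strands and for each strand. Opposite-strand counts, 97.1 to 97.2% of strand-assigned reads, were used. The authors' deposited tables hold normalized signal, log2 fold changes, p-values and a score, the ratio of fold change to error. The lines of the count tables that name no gene (14.2 to 17.5% of reads) were left out.

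Tests used edgeR 4.0.16 in R 4.3.3 (quasi-likelihood F test, TMM, filterByExpr, two-sided, Benjamini-Hochberg, called under 0.05), each comparison on its own 6 libraries and the interaction on 12. All 9 genes passed the filter in each fit. Log2 fold changes are fitted with a prior count of 0.125, with SE as fold change over root F. RPKM divides CPM by union exon length from GRCm38 (GENCODE M21), another build, used for lengths and names only; promoters are RefSeq's. DESeq2 1.42.0 and other settings were alternatives, and the edgeR scripts were tested on simulated data. Floors cover counting error only, and the intervals of fold changes the spread between libraries. No pair of replicates was alike within sampling noise (chi-square over its degrees of freedom at least 11.99).

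Replicate numbers are shared between groups with no label saying what they mark. The deviations of same-numbered E47KO and E47wt libraries from their group means correlated at r = 0.24, 0.26 and 0.56 across genes. For the wild types r was 0.15, 0.32 and 0.38, and for E12KO and E12wt 0.14, 0.08 and -0.02. Differently numbered libraries were not set beside these, so whether the numbers mark pairs was not tested.

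The 9 genes and the 18 gene lists (167 entries, all found) were chosen with earlier results of these data known. Named were the 9 genes, the 2 genes most like each, and from each pathway list up to 4 called genes or else the 2 with the highest mean, of which not all are described. Cdkn1c, Col1a1, Aqp4, Dcx, Neurog2, Eomes, Nes and Sox2, and those in the closing section, were chosen otherwise, after values were seen.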

Additional observations from a re-analysis of the deposited data

Results flagged for a closer look

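Reads on the strand that was not used for testing exceeded the library-wide share of 2.76 to 2.87% for 3 of the 9 genes in every library, which flagged them as signal outside the main measurement. For Rb1 that share was 13.6 to 19.4% of the strand-assigned reads, for Cdk4 it was 8.18 to 9.32%, and for Rbl2 it was 3.73 to 7.28%. In the reference annotation, protein-coding genes on the other strand overlap all 3: Lpar6 and Rcbtb2 for Rb1, Tspan31 for Cdk4 and Aktip for Rbl2. Whether these reads come from those genes was not tested. In counts of both strands, where reads in overlapping genes are left out, Ccnd1 kept 77.9 to 81.8%, Ccnd3 64.0 to 70.3% and Cdk4 99.8 to 99.9% of their opposite-strand reads.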

How the results depend on the processing

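No alternative called any of the 9 genes: 0 of 108 combinations of gene and setting passed for E12, 0 of 117 for E47, 0 of 162 for the interaction and 0 of 108 for the wild types. The number of genes called over the whole table for E12 was 6, and it was 95 with DESeq2, 20 with no filter on low counts, 2 with all 12 libraries in 1 fit, and 2 to 10 with 1 library left out (2 without E12KO replicate 2 or 3, and 10 without E12wt replicate 3). For E47 it was 2, and it was 5 with DESeq2, 1 with the sex covariate, and 0 to 7 with 1 library left out (7 when E47wt replicate 2 was dropped, 0 when E47wt replicate 3 was, and 1 when replicate 1 of either group was). For the interaction it was 0, with 1 under DESeq2 and 0 to 1 with 1 library left out (1 without E47wt replicate 2); for the wild types it was 0, with 6 under DESeq2. The replicate block called 4 genes for E12 and 2 for E47 and changed no call of the 9 genes; with it, Cdk6 in E12 was 0.306 ± 0.126 (SE), against ± 0.301 without it.

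Some log2 values near 0 changed sign, and the cause was not tested. Ccnd3 in E47 was 0.016 with both strands and 0.229 with the sex covariate, and between the wild types 0.023 and 0.088. Between the wild types, Cdk6 was 0.027 with both strands and 3.7e-05 with the replicate block, and Rbl2 was 0.021 with both strands. With 1 library left out at a time, several values crossed 0. For E12, the log2 value ran from -0.118 to 0.078 for Ccnd3, -0.075 to 0.008 for Cdk2, -0.025 to 0.073 for Cdk4 and -0.119 to 0.013 for Rbl1. For E47, the log2 value ran from -0.662 to 0.120 for Ccnd1, -0.881 to 0.026 for Ccnd2, -0.123 to 0.096 for Ccnd3, -0.332 to 0.139 for Cdk2, -0.030 to 0.415 for Cdk6, -0.435 to 0.030 for Rbl1 and -0.180 to 0.200 for Rbl2. For the interaction, the log2 value ran from -0.086 to 0.156 for Ccnd3, -0.301 to 0.182 for Cdk2, -0.007 to 0.109 for Cdk4, -0.363 to 0.120 for Cdk6, -0.399 to 0.079 for Rbl1 and -0.112 to 0.254 for Rbl2. For the wild types, the log2 value ran from -0.076 to 0.088 for Ccnd3, -0.141 to 0.082 for Cdk2, -0.246 to 0.158 for Cdk6, -0.078 to 0.063 for Rbl1 and -0.036 to 0.041 for Rbl2.

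Shares per length depended on the length used. With the longest transcript Ccnd1 held 61.4%, Ccnd2 33.9%, Ccnd3 4.71% and Cdk2 6.95% of their families, and with both strands Ccnd1 held 61.7% and Ccnd2 36.04%. Depth limits Cdk6 most, with 195 reads in its lowest library.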

Other observations

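Other genes of E47KO replicate 2 are given as values of 1 library with no test. Of the 16 genes that feed D cyclin transcription and had a mean of at least 1 CPM, 5 were highest there and 4 lowest. The shares over all genes were 30.6% highest and 33.5% lowest, so these counts were near or under them. The FGF receptors Fgfr2 and Fgfr3 were highest there, at 60.8 CPM, against 16.1 to 32.4 CPM, and at 237 CPM, against 91.6 to 138 CPM in the other 11 libraries. Etv5 and Etv4, transcription factors induced by FGF signalling, were lowest there, Etv5 at 227 CPM, against 409 to 570 CPM, and Etv4 at 46.7 CPM, against 60.8 to 83.6 CPM. Dusp6, a phosphatase induced by the same signalling, was within the others at 49.3 CPM, against 11.7 to 60.1 CPM (median 17.9 CPM). Spry2, of the same list, was also within the others at 82.0 CPM, against 40.7 to 98.7 CPM (median 54.0 CPM). Myc was lowest at 12.1 CPM, against 14.2 to 57.8 CPM, and Stat3 highest at 285 CPM, against 176 to 209 CPM.

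The Notch receptor Notch1 was at 483 CPM there, against 200 to 251 CPM, and the Notch target Hes5 at 966 CPM, against 291 to 498 CPM. Ccne2 and Ccne1, the E cyclins that act after the D cyclins, were at 5.27 CPM, against 20.7 to 46.6 CPM, and at 18.7 CPM, against 37.2 to 51.8 CPM. Cdc6, a replication licensing factor, was at 13.6 CPM, against 39.1 to 73.4 CPM. Dyrk1b, a kinase known to promote the breakdown of cyclin D1, was at 22.6 CPM, against 4.77 to 8.70 CPM, and Cdkn1c at 15.9 CPM, against 3.98 to 9.505 CPM.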
